A study of Homo sapiens with 24 samples.

Results

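The replication-dependent histone genes were followed in poly(A) RNA of SW872, a human liposarcoma line. Members were the genes of the GENCODE annotation whose symbols follow the naming of the clustered histones, that is H1-1 to H1-5 and the numbered H2AC, H2BC, H3C and H4C genes. The annotation held 68 such genes, 64 of them were among the 60279 genes of each count table, and H2AC18, H2AC19, H3C2 and H3C3 were not analysed here. The cells carried a pBabeNeo retroviral vector, selected with G418 as pooled stable lines, and each of the 8 groups held 3 libraries. Cells with the empty vector (EV), with TFE3, with the fusions TAZ-CAMTA1 and YAP-TFE3, and with TAZ4SA or YAP5SA were collected 48 h after confluence. The CAMTA1 cells and another set of empty vector cells (EVsub) were collected sub-confluent. The fusions join the Hippo pathway coactivators TAZ and YAP to the transcription factors CAMTA1 and TFE3. TAZ4SA and YAP5SA carry alanines at serines that the LATS kinases phosphorylate.

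Replication-dependent histones package new DNA during S phase. H2A, H2B, H3 and H4 form the nucleosome core, and H1 binds the linker DNA between nucleosomes. Their genes mostly lack introns and lie in clusters, and the coding regions of several are near-identical. Their messenger RNAs normally end in a conserved stem-loop that is bound by SLBP, instead of a poly(A) tail, and are degraded when DNA synthesis stops. Poly(A) libraries therefore hold the polyadenylated fraction of these transcripts and not their whole amount. Polyadenylated forms of some of these genes have been described in differentiated and non-dividing cells, while the variant histones, such as H2AX and H3-3B, are polyadenylated or expressed outside S phase.

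Totals per library ranged from 19700277 to 35287476 counts. All 6 mesenchymal markers were counted in every library. Of 6 adipocyte markers, LPL was at 30.6 to 268 CPM (scaled counts) and PPARG at 27.2 to 100 CPM over the libraries, CEBPA and PLIN1 reached at most 3.78 and 1.24 CPM, FABP4 reached at most 23 counts and ADIPOQ was at 0. Of 7 markers of other cell types, the endothelial genes CDH5 and PECAM1 were at 3.09 to 64.1 and 1.70 to 9.32 CPM, the other 5 reached at most 1.86 CPM, and the leukocyte gene PTPRC reached at most 1 count. WWTR1, which encodes TAZ, went against the label TAZ4SA. It was at 134 ± 0.538 CPM (SD, n = 3) in the libraries labelled TAZ4SA and at 204 ± 20.3 CPM (SD, n = 3) in EV. The log2 ratio was -0.60 (adjusted p = 9.77e-07). The paper shows a western blot of Flag-tagged TAZ4SA in SW872 cells. Levels of the genes behind the other labels are not given here. Directions drawn from the TAZ4SA group below are those of the libraries so labelled. Libraries numbered 3 stood apart, as given beside the summed levels. The methods give the libraries as biological triplicates, made by separate transduction and selection. The p-values rest on the spread between libraries, estimated over all groups together. The tests are those of edgeR, and a gene was called at an adjusted p under 0.05. A log2 ratio is the fitted log2 fold change of the first group named over the second.

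The histone stem-loop was looked for in the genome, since the libraries selected poly(A) RNA and the stem-loop is where a transcript without a tail would end. The letters searched were the 16-base hairpin that the most members hold after their stop codon, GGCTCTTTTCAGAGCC. Allowing 2 mismatches, they occurred within 100 bases after the stop codon in 63 of the 68 members. They occurred in 68 of all 19924 protein-coding genes searched (0.341%), which include the members. The letters were taken from the members, so the members' share follows in part from that choice. With 3 mismatches allowed, all 68 members and 88 genes in all (0.442%) held them. The 16 letters were exact in 40 members, and the distance from the stop codon was 22 to 67 bases. The following sequences are those of 10 members on which the results turn, read from GRCh38 on the coding strand, with the stem-loop in capitals and 5 bases on each side.
H1-2, chr6:26055739-26055764, minus strand: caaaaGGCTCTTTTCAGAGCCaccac
H2AC6, chr6:26124664-26124689, plus strand: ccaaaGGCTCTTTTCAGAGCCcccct
H2AC11, chr6:27133510-27133535, plus strand: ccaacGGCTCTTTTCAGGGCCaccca
H2AC25, chr1:228457364-228457389, minus strand: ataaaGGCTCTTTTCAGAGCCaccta
H2BC12, chr6:27146361-27146386, minus strand: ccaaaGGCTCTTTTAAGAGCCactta
H2BC21, chr1:149886183-149886208, minus strand: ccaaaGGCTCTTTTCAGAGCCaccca
H3C10, chr6:27810511-27810536, plus strand: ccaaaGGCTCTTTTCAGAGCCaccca
H4C8, chr6:26285126-26285151, minus strand: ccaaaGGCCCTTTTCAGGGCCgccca
H4C9, chr6:27139649-27139674, plus strand: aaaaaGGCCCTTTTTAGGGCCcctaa
H4C15, chr1:149860764-149860789, minus strand: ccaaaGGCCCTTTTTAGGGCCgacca

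The H4 genes differed from the other families in the stem. The core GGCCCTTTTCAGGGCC, as in H4C8, was found in 10 members, and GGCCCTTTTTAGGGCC, as in H4C9, in H4C9, H4C12, H4C14 and H4C15. The H2B genes H2BC12, H2BC5 and H2BC11 shared the core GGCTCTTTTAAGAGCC, found in 8 members. The hexamer AATAAA, the usual poly(A) signal, occurred within 1000 bases after the stop codon in 32 of the 68 members and in 62.0% of all 19924 genes.

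Most histone genes were scarcely counted. Of the 64 in the tables, 31 had a mean of 5 or more counts over the 24 libraries and entered the tests, 33 lay below, and 6 of those had no count in any library. The families differed in how many passed: 3 of 5 H1, 6 of 15 H2A, 11 of 18 H2B, 4 of 11 H3 and 7 of 15 H4 genes. Just below the limit lay H1-5 with a mean of 3.0 counts, H3C14 with 3.04 and H2BC13 with 3.46, and just above it H1-3 with 5.04, H2BC17 with 5.58 and H2AC20 with 5.79. Only 8 genes averaged 100 counts or more. These were H2BC12 with a mean of 619 counts, H2AC6 with 611, H2BC21 with 455, H1-2 with 432, H4C9 with 316, H2BC5 with 252, H2AC25 with 136 and H2AC11 with 132. Counts are not corrected for length, so their order is not an order of transcript abundance. As a reference for the poly(A) selection, 8 small RNAs without a poly(A) tail, RMRP, RPPH1, RN7SL1, RN7SL2, TERC, SCARNA2, SCARNA10 and RNU4-2, a list chosen after the data were seen, together reached at most 3 counts in any library.

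A transcript reaching 100 bases or more past the stem-loop was annotated in 15 of the 31 tested members and in 2 of the 33 below the limit. Within the tested members, the median of the mean counts was 56.9 with such a transcript and 10.8 without one. H2AC6, H2BC21, H2BC5 and H2AC25 had one, while H2BC12, H1-2, H4C9 and H2AC11 had none. H2BC21, for example, was annotated for 1729 bases past its stem-loop, and H2BC12 for 5. Such distances are genomic and include introns where a transcript is spliced, which that of H2BC21 is not. Annotated exon length differs between these genes too, so the count alone does not tell the 3′ ends apart. The counts were made on an earlier annotation (Ensembl release 78) than the GENCODE release 44 used here.

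Near-identical copies limit some members. Of the 64 genes, 41 had only coding windows of 75 bases that occur once in the genome, but H4C14, H4C15, H3C14 and H3C15 had no exon window that does. H4C14 averaged 54.0 counts and H4C15 81.5 despite this. How reads that fit more than 1 place were shared between copies is not given in the sources used here. Among the tested members, 6 had under 50% of their exon windows unique, namely H4C14, H4C15, H3C15, H4C12 (7.99%), H2AC13 (38.7%) and H2BC18 (39.2%), and values for these are uncertain as values of a single gene. H2BC12, the gene with the most counts, had 61.0% of its exon windows unique. In 23 of the 31 tested members at least 90% were unique. H2BC18, H2AC25, H2BC26, H2BC4 and H2BC5 also overlap other genes of the tables, and how the counting used strand is not given in the sources used here.

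**Figure D1:**
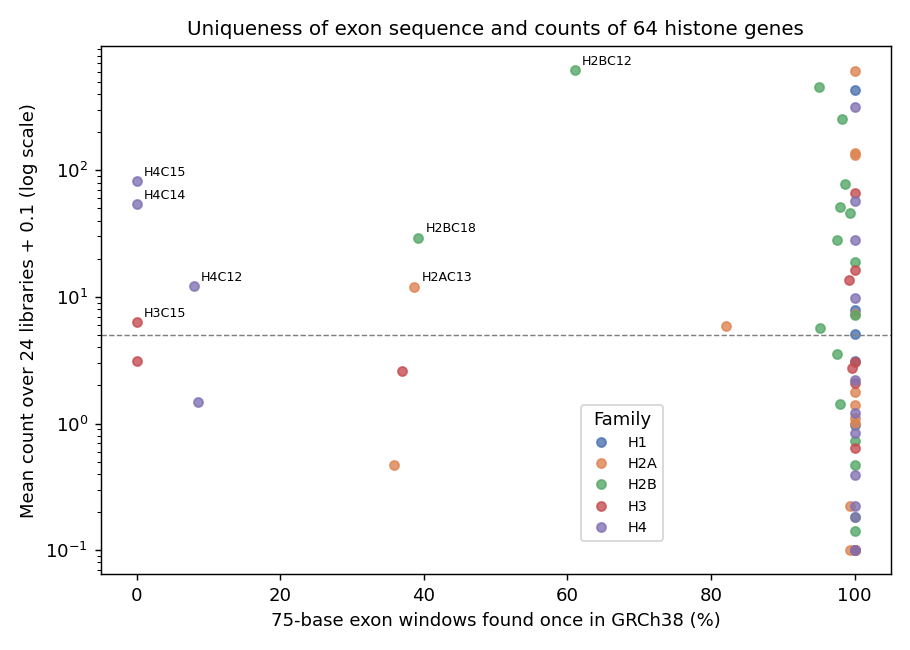
Mean count over the 24 libraries plus 0.1 (vertical log axis) against the share of a gene's 75-base exon windows that occur once in GRCh38 (horizontal axis, %) for 64 histone genes, coloured by family. The dashed line is the limit of 5 counts; H4C14 and H4C15 lie at 0% with 54.0 and 81.5 mean counts, and the genes at 100% span the whole range of counts.

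The summed level of the 64 genes separated the sub-confluent from the confluent groups. Levels are CPM, a gene's counts relative to the library size scaled by trimmed mean of M-values. In EV the sum was 148 ± 25.3 CPM (SD, n = 3), and its libraries ran from 126 to 176. In EVsub it was 64.7 ± 2.85 CPM (SD, n = 3), from 61.8 to 67.5, and in the likewise sub-confluent CAMTA1 cells 63.2 ± 13.9 CPM (SD, n = 3), from 51.2 to 78.4. Most confluent groups overlapped one another, but the libraries labelled TAZ4SA, from 172 to 213, lay above all those of YAP5SA and TAZ-CAMTA1, which reached 143 and 170. The gap to TAZ-CAMTA1 depended on the scaling, since relative to plain total counts these groups overlapped. Library 1 of those labelled TAZ4SA held 4295 histone counts of 27653531, and TAZ-CAMTA1 library 3 held 5519 of 29919655. The sum was 150 ± 20.9 CPM in TAZ-CAMTA1, 188 ± 22.5 in the libraries labelled TAZ4SA, 143 ± 44.7 in YAP-TFE3, 132 ± 9.63 in YAP5SA and 158 ± 40.0 in TFE3 (SD, n = 3 each). The 8 genes with 100 or more mean counts made up 78.9% to 84.0% of the group sums.

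The library numbered 3 had the highest sum in 7 of the 8 groups, EVsub being the exception. Its sum was 1.66 times the mean of the other YAP-TFE3 libraries, 1.41 times in CAMTA1 and in TFE3, 1.30 times in EV and 1.13 times in YAP5SA. The summed level of 22 S-phase genes went the other way and was lowest in library 3 in 7 groups. YAP-TFE3 was the exception, with 1820 CPM in library 3 against 1100 and 1040 CPM in libraries 1 and 2. The part of this difference between libraries in the comparisons was not tested beyond leaving libraries out, and each count below that moved by more than 1.5 times is given both ways.

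**Figure D2:**
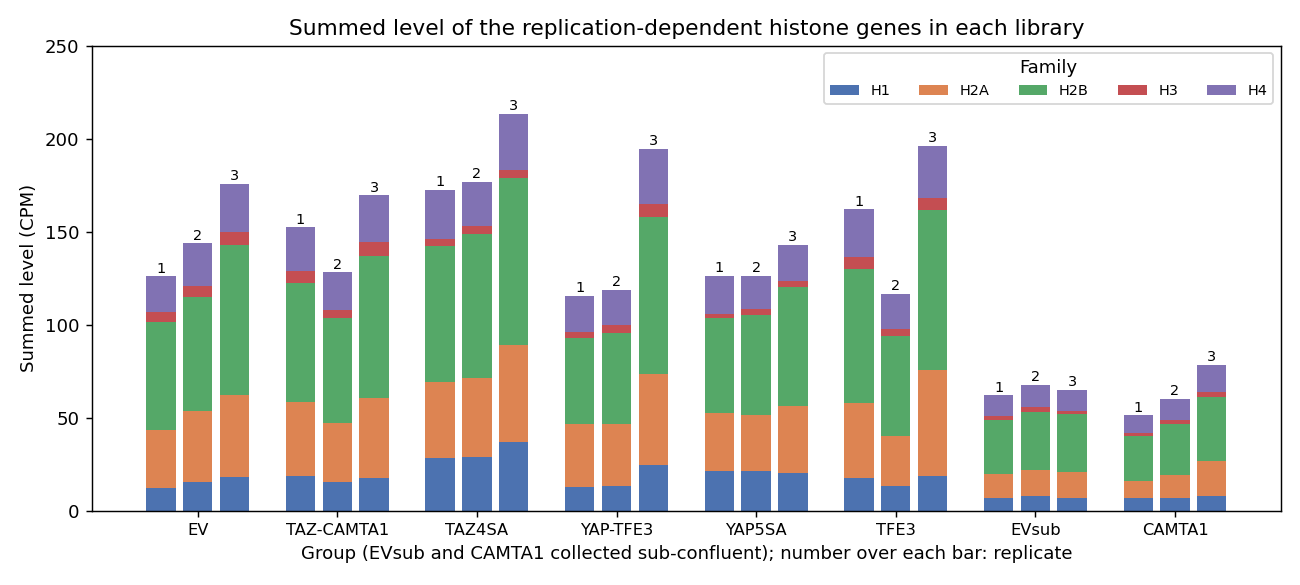
Summed level (CPM, vertical axis) of the histone genes in each of the 24 libraries, stacked by family, with the replicate number above each bar. Bars of EVsub and CAMTA1 lie between 51.2 and 78.4 CPM and those of confluent cells at 116 CPM or above.

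H2B genes held the largest share of the sum in every group, from 41.6% in YAP-TFE3 to 47.3% in EVsub. H2A genes held 21.1% to 27.5%, and H4 genes 14.3% to 18.7%. The H1 share was 10.2% in EV, 15.9% in YAP5SA and 16.6% in the libraries labelled TAZ4SA. The H3 share was 4.09% in EV, 2.18% in YAP5SA and 2.24% in the libraries labelled TAZ4SA. H1-2 carried nearly all of the H1 level, since H1-4 and H1-3 averaged 7.83 and 5.04 counts. H3C10 was the most counted H3 gene, with a mean of 66.6 counts.

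Of the 10 comparisons, the one by cell density had the median furthest from 0. EVsub against EV asks how sub-confluent and confluent cells of the same empty vector differ. Of the 31 tested members, 20 were lower in EVsub and none was higher, at an adjusted p under 0.05, where 36.8% of all 19997 tested genes were called in either direction and 17.1% were called lower. The log2 ratio was negative for 29 members, with a median of -1.14 against -0.02 over all tested genes. The lower members came from every family: H1-2 of the H1 genes, 2 of 6 H2A, 9 of 11 H2B, 3 of 4 H3 and 5 of 7 H4 genes. In 24 of the 31 members the libraries of EVsub and EV did not overlap, where 52.5% of all tested genes did not. In bulk poly(A) RNA, fewer cells with these RNAs, less of them per cell and a smaller polyadenylated share of them cannot be told apart.

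H2AC6, an H2A gene with unique sequence throughout, was at 21.7, 27.1 and 32.1 CPM in EV and at 7.81, 7.75 and 6.95 CPM in EVsub. All EV libraries lay above all EVsub libraries, 3.59-fold on average (log2 ratio -1.84 with SE 0.29, adjusted p = 4.25e-05). H2BC21 was at 18.3, 18.8 and 30.7 CPM in EV and at 5.26, 7.03 and 5.59 CPM in EVsub. The groups did not overlap, and the lowest EV value was well above the highest EVsub value (log2 ratio -1.92 with SE 0.32, adjusted p = 7.47e-05). H2BC5 showed the same order, with 9.90, 9.94 and 13.0 CPM in EV against 3.62, 3.11 and 4.23 CPM in EVsub (log2 ratio -1.57 with SE 0.23, adjusted p = 2.3e-05).

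The linker histone gene H1-2 was at 11.4, 14.9 and 17.7 CPM in EV and at 6.29, 7.61 and 6.02 CPM in EVsub, without overlap (log2 ratio -1.14 with SE 0.21, adjusted p = 0.000254). H3C10, which encodes a core H3, was at 3.21, 3.35 and 4.94 CPM in EV and at 0.724, 1.35 and 0.681 CPM in EVsub. Its fall was 4.26-fold, the largest among members with 20 or more mean counts (log2 ratio -2.09 with SE 0.31, adjusted p = 2.62e-05). H4C8, a core H4 gene, was close to 1.36 CPM in every EV library and at 0.343, 0.450 and 0.341 CPM in EVsub (log2 ratio -1.86 with SE 0.25, adjusted p = 8.71e-06). H4C15 and H2BC18, whose reads cannot be placed uniquely throughout, were also lower, with log2 ratios of -1.60 (adjusted p = 0.000444) and -1.69 (adjusted p = 0.000495).

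The genes with the most counts did not all fall by like amounts. H2BC12 was at 20.9, 22.4 and 26.4 CPM in EV and at 15.1, 15.8 and 16.1 CPM in EVsub. The groups stayed apart, but the log2 ratio was only -0.57 (SE 0.18 and adjusted p = 0.0139). Without EV library 3 it was -0.47 with an adjusted p of 0.0757, and without EVsub library 1 it was -0.54 with 0.0502. H4C9 lay between these cases, at 10.2, 12.5 and 13.6 CPM in EV and 7.51, 6.67 and 6.90 CPM in EVsub (log2 ratio -0.78 with SE 0.20, adjusted p = 0.00367). H2AC25, an H2A gene of the smaller cluster on chromosome 1, was at 3.17, 4.68 and 4.80 CPM in EV and at 2.29, 3.02 and 3.77 CPM in EVsub. Those groups overlapped, and its log2 ratio of -0.46 (SE 0.24) had an adjusted p of 0.133. Differences between genes in their fold change were not tested.

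Of the 20 lower members, 13 kept an adjusted p under 0.05 without any 1 of the 6 libraries compared, and H2BC4, H2BC7, H2BC11, H2BC12, H3C4, H3C6 and H4C16 lost it without at least 1 library. Without all libraries numbered 3, a setting chosen after the data were seen, 16 members were lower and none was higher. The members with a transcript annotated past the stem-loop counted 14 lower of 15 with a median log2 ratio of -1.44, and the others 6 lower of 16 with a median of -0.97. The mean counts of these sets also differed, as given above, and the difference between the sets was not tested.

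**Figure D3:**
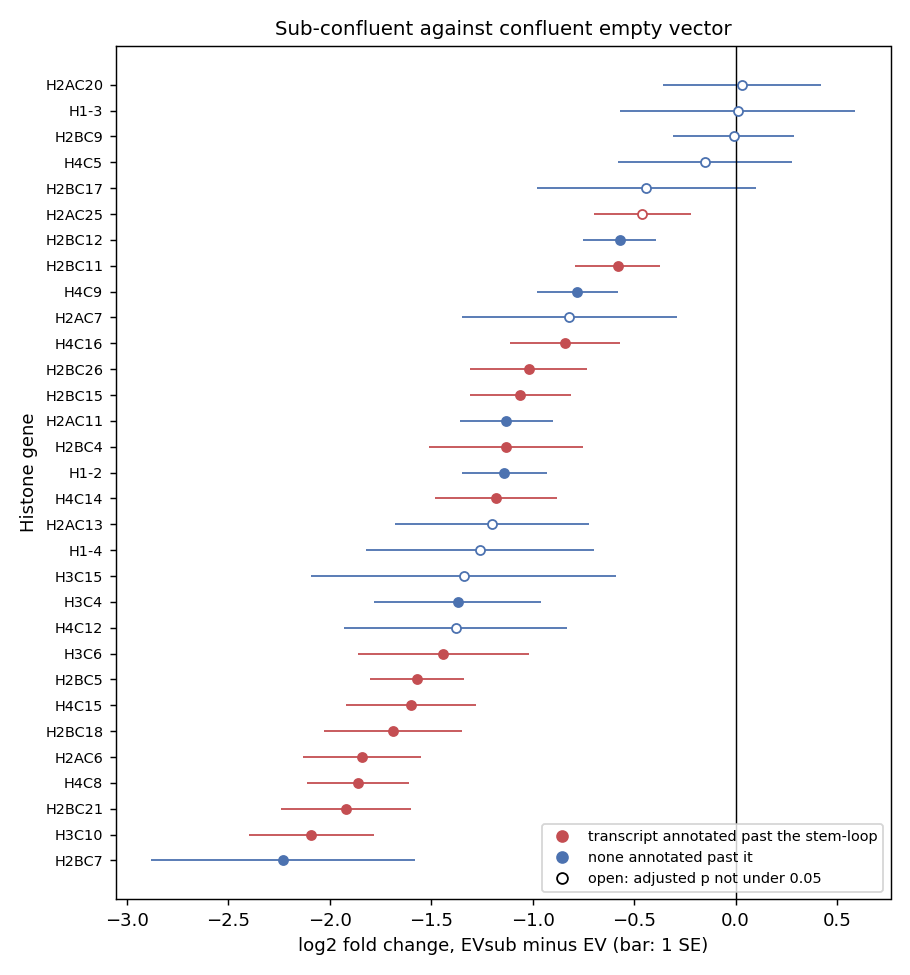
Log2 ratio of the 31 tested histone genes, EVsub minus EV (horizontal axis, bars 1 SE, n = 3 libraries per group), red where a transcript is annotated 100 bases or more past the stem-loop, open where the adjusted p was not under 0.05. Values run from -2.23 in H2BC7 to 0.03 in H2AC20, with 20 filled points, all left of 0.

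Lists of genes around histone synthesis were counted in the same comparison. Of 22 S-phase genes, 15 were higher in EVsub and none was lower, where 19.8% of all tested genes were called higher, and their median log2 ratio was 0.61. Their summed level was 4690 to 4840 CPM in the EVsub libraries and 2870 to 3150 CPM in those of EV. Of 16 genes for histone mRNA processing, 9 were higher and 2 lower, with a median of 0.34. ERI1, an exonuclease that trims and degrades histone mRNA at the stem-loop, was at 103 ± 9.32 CPM in EVsub and 57.5 ± 4.74 CPM in EV (SD, n = 3 each; log2 ratio 0.84 with SE 0.12, adjusted p = 2.15e-05). Of 16 histone chaperone genes, 8 were higher and 1 was lower, with a median of 0.29. The variant histones were mixed, with 3 higher and 4 lower of 11 tested, and CENPA, the H3 variant of centromeres, was at 36.1 ± 1.01 CPM in EVsub and 20.1 ± 0.639 CPM in EV (SD, n = 3 each; log2 ratio 0.85 with SE 0.18, adjusted p = 0.000838). Of 6 mesenchymal markers 1 was higher and 4 lower in EVsub, and their summed level was 6420 to 7510 CPM in EV and 3790 to 3990 CPM in EVsub. Of 6 tested markers of other cell types 2 were lower and none higher, and of 4 tested adipocyte markers none was called. The part of these markers in the histone result was not tested.

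CAMTA1 was set against EVsub, its control at like density. None of the 31 members was called by edgeR, where 1.83% of all tested genes were (1.26% higher and 0.57% lower), and 1 member, H1-4, had an unadjusted p under 0.05. DESeq2 called none either. The median log2 ratio was 0.01, and 4 of the 31 members did not overlap between the groups, where 21.6% of all tested genes did not, so the members' count was not above the background. H1-4, noted here after its value was seen, was at 0.241, 0.430 and 0.147 CPM in CAMTA1 and at 0.0762, 0.0901 and 0.142 CPM in EVsub (log2 ratio 1.37 with SE 0.54, adjusted p = 0.260). H2AC6 was at 4.63, 6.51 and 11.7 CPM in CAMTA1, a range that includes all 3 EVsub values.

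The 5 comparisons of confluent cells with EV share the EV libraries, so their values are given side by side. TAZ-CAMTA1 asks what the fusion of TAZ does against empty vector. No member was called by edgeR or by DESeq2, where edgeR called 4.98% of all tested genes (3.55% higher and 1.44% lower), and the median log2 ratio was 0.03. The 1 member with an unadjusted p under 0.05 was H2AC20, with a log2 ratio of -1.06 (SE 0.45 and adjusted p = 0.215), noted after its value was seen. TFE3 against EV gave no called member in either tool, where edgeR called 0.035% of all tested genes. Its 1 member with an unadjusted p under 0.05 was H2AC7, with a log2 ratio of 0.91 (SE 0.41 and adjusted p = 1.0). H2AC6 was at 27.5, 22.8 and 29.4 CPM in TAZ-CAMTA1 and at 26.9, 17.3 and 41.2 CPM in TFE3, both overlapping EV.

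In the libraries labelled TAZ4SA, members were called in both directions against EV. Of the 31 members 8 were higher and 3 lower, 11 in all, where 49.2% of all tested genes were called, 25.1% higher and 24.2% lower, so the members' count was not above the background. The median log2 ratio was 0.12 against -0.03 over all tested genes. With scaling by total counts 4 were higher and 4 lower. H1-2, H2AC25, H2BC11 and H4C8 kept their call without any 1 library. The other members called higher, H1-3, H2AC7, H2BC15, H4C5 and H2BC12, each lost the call without at least 1 library. The count was 7 without EV library 1 and also 7 without library 2 of those labelled TAZ4SA. The summed levels of the mesenchymal markers, 2390 to 3610 CPM, and of the adipocyte markers, 64.2 to 74.4 CPM, lay below all EV libraries (6420 to 7510 and 149 to 223 CPM), and that of markers of other cell types was 24.8 to 40.4 CPM against 40.4 to 64.1 CPM. Single markers went both ways. By gene, 1 of 6 mesenchymal markers was higher and 3 lower, and 1 of 4 tested adipocyte markers was higher and 2 lower. Among 6 tested markers of other cell types 2 were higher and 2 lower. Their part in these calls was not tested.

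H2AC25 was at 10.1, 11.2 and 8.95 CPM in the libraries labelled TAZ4SA and at 3.17, 4.68 and 4.80 CPM in EV. It was thus 2.40-fold higher without overlap (log2 ratio 1.27 with SE 0.22, adjusted p = 4.68e-05). H1-2 was at 27.6, 27.6 and 35.5 CPM against the 11.4 to 17.7 CPM of EV (log2 ratio 1.05 with SE 0.20, adjusted p = 0.000144). H2BC11 was at 5.42, 4.55 and 5.59 CPM against 2.35, 2.63 and 2.33 CPM (log2 ratio 1.09 with SE 0.19, adjusted p = 4.75e-05). These 3 genes stood clear of EV in every library. H2BC12 was higher by a log2 ratio of 0.55 (SE 0.17 and adjusted p = 0.00986), which became 0.48 with an adjusted p of 0.0515 without EV library 1, and 0.36 with an adjusted p of 0.088 under scaling by total counts.

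The lower genes were H4C8, H4C16 and H3C10. H4C8 was at 0.683, 0.687 and 0.925 CPM in the libraries labelled TAZ4SA, below the 1.33 to 1.41 CPM of EV (log2 ratio -0.82 with SE 0.22, adjusted p = 0.0039). H4C16, the only member on chromosome 12, was at 1.16, 0.730 and 2.01 CPM against 2.48, 2.67 and 2.03 CPM (log2 ratio -0.87 with SE 0.28, adjusted p = 0.011). Those groups nearly met, and without library 2 of those labelled TAZ4SA its log2 ratio was -0.60 with an adjusted p of 0.0821. H3C10 was at 2.17, 2.23 and 2.54 CPM against 3.21, 3.35 and 4.94 CPM (log2 ratio -0.71 with SE 0.28, adjusted p = 0.0368). Its call rested on several libraries: the adjusted p was 0.181 without EV library 3, and 0.0988 and 0.0876 without libraries 1 and 2 of those labelled TAZ4SA.

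YAP5SA against EV gave 1 higher and 4 lower members, where 44.3% of all tested genes were called (22.7% higher and 21.6% lower), and the median log2 ratio was -0.24. H3C10 was at 1.18, 1.38 and 1.49 CPM in YAP5SA, below all EV libraries (log2 ratio -1.49 with SE 0.30, adjusted p = 0.000291). H4C8 was at 0.614, 0.571 and 0.522 CPM, also below all of EV (log2 ratio -1.25 with SE 0.24, adjusted p = 0.000153). H2BC11 was at 4.25, 3.04 and 5.78 CPM and thus above all EV libraries (log2 ratio 0.85 with SE 0.19, adjusted p = 0.000992). These 3 calls held without any 1 library. H2BC18 had a log2 ratio of -1.13 (SE 0.33 and adjusted p = 0.00718), or -0.87 with 0.0506 without YAP5SA library 2. H4C16 had -0.83 (SE 0.28 and adjusted p = 0.0183), and 0.0625, 0.0501 and 0.0539 without EV library 2, YAP5SA library 1 and YAP5SA library 2. H1-2 was at 20.2, 20.5 and 19.2 CPM, above all EV libraries, but its log2 ratio of 0.45 (SE 0.20) had an adjusted p of 0.0752. The summed levels of the mesenchymal markers (2820 to 4870 CPM), the adipocyte markers (118 to 132 CPM) and the markers of other cell types (8.19 to 12.6 CPM) lay below all EV libraries, and their part in these calls was not tested. Of these lists 1 of 6 mesenchymal markers was higher and 2 lower, 1 of 4 tested adipocyte markers was higher and 2 lower, and 1 of 6 tested markers of other cell types was higher and 3 lower.

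YAP-TFE3 against EV gave 3 higher and 1 lower member, where 48.2% of all tested genes were called (25.6% higher and 22.6% lower), and the median log2 ratio was 0.04. H2BC15, an H2B gene, was at 3.67, 3.14 and 2.51 CPM in YAP-TFE3 and at 1.76, 1.60 and 1.45 CPM in EV, without overlap (log2 ratio 0.94 with SE 0.21, adjusted p = 0.000744). H4C8 was at 1.72, 1.66 and 2.40 CPM, above the EV libraries, with a log2 ratio of 0.51 (SE 0.19 and adjusted p = 0.0338). That call was lost without EV library 1, 2 or 3 (adjusted p = 0.0802, 0.0845 and 0.0563), without YAP-TFE3 library 3 (0.196) and in DESeq2 (0.0999). The other called members, H2AC7 and H2AC20, averaged 7.29 and 5.79 counts. Without YAP-TFE3 library 3, which had the highest histone sum of its group, 2 members were higher and 5 lower, 7 in all. Of 4 tested adipocyte markers 3 were higher and none lower, with a median log2 ratio of 0.89, and their summed level was 304 to 370 CPM in YAP-TFE3 and 149 to 223 CPM in EV. The markers of other cell types summed to 19.5 to 33.6 CPM against 40.4 to 64.1 CPM, and the mesenchymal markers to 7120 to 7830 CPM against 6420 to 7510 CPM. By gene, 1 of 6 tested markers of other cell types was higher and 3 lower, and 2 of 6 mesenchymal markers were higher and 2 lower. Their part in these calls was not tested.

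**Figure D4:**
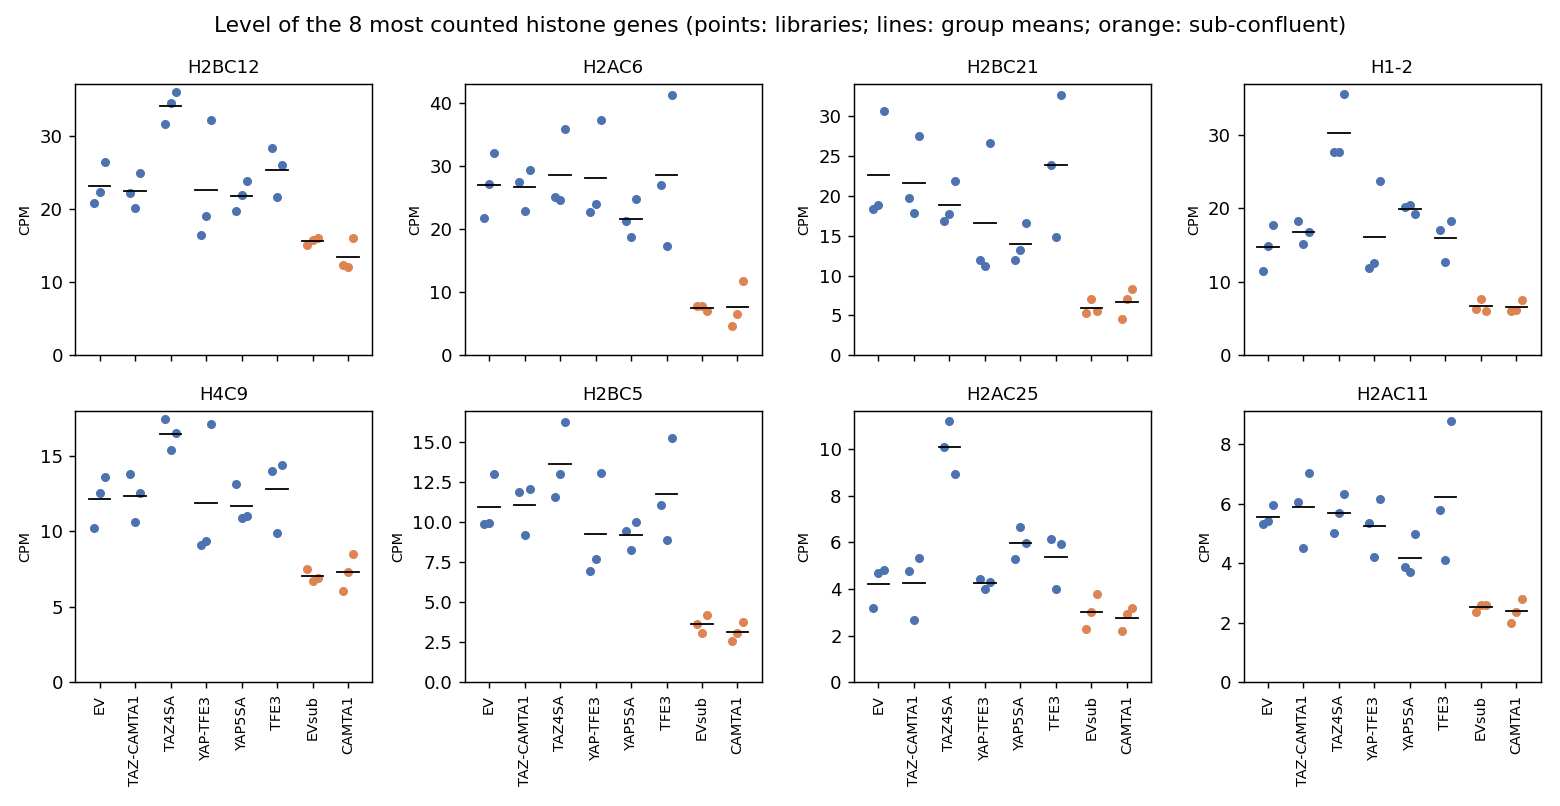
Level (CPM, vertical axes from 0) of the 8 histone genes with 100 or more mean counts in the 3 libraries of each group, with group means as lines and sub-confluent groups in orange. All except H2AC25 lie lower in EVsub and CAMTA1 than in every confluent library, and H2AC25 is highest in the libraries labelled TAZ4SA, between 8.95 and 11.2 CPM.

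The S-phase genes were also counted in YAP-TFE3. Of the 22 S-phase genes 21 were lower in YAP-TFE3 than in EV, where 22.6% of all tested genes were called lower, and their median log2 ratio was -1.29. RRM2, a subunit of ribonucleotide reductase, was at 27.5 ± 20.8 CPM in YAP-TFE3 and 118 ± 4.78 CPM in EV (SD, n = 3 each; log2 ratio -2.09 with SE 0.28, adjusted p = 9.96e-07). TYMS, which makes thymidylate, and GINS2, of the replicative helicase, had log2 ratios of -1.85 (SE 0.20 and adjusted p = 4.19e-08) and -1.90 (SE 0.25 and adjusted p = 1.08e-06). Of 16 chaperone genes 3 were higher and 12 lower, among them ASF1B (log2 ratio -1.58 with SE 0.19, adjusted p = 2.51e-07) and CHAF1B, of the CAF-1 complex (-1.14 with SE 0.21, adjusted p = 6.65e-05). Of 16 processing genes 2 were higher and 7 lower. Of 11 variant genes 1 was higher and 5 lower, among them H2AX, which marks DNA breaks when phosphorylated, at 50.6 ± 8.61 CPM in YAP-TFE3 and 134 ± 4.60 CPM in EV (SD, n = 3 each; log2 ratio -1.40 with SE 0.14, adjusted p = 1.3e-08), and the linker variant H1-10 (log2 ratio -0.84 with SE 0.16, adjusted p = 0.000163).

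The same lists were counted in the other groups, where 49.2% of all tested genes were called in the libraries labelled TAZ4SA (25.1% higher and 24.2% lower) and 44.3% in YAP5SA (22.7% higher and 21.6% lower). Of the S-phase genes, YAP5SA had 4 higher and 2 lower, and the libraries labelled TAZ4SA 3 higher and 3 lower, both below the background. Of the 16 processing genes 3 were higher and 6 lower in the libraries labelled TAZ4SA, a count near the background, among them NPAT, which activates histone transcription at S phase (log2 ratio -0.91 with SE 0.17, adjusted p = 8.55e-05), and CASP8AP2, a protein of histone locus bodies (-1.23 with SE 0.25, adjusted p = 0.000235). In YAP5SA 2 were higher and 4 lower. Of the 16 chaperones, the libraries labelled TAZ4SA had 2 higher and 6 lower, also near the background, among them ATRX (log2 ratio -1.42 with SE 0.25, adjusted p = 6.15e-05), and 2 higher and 5 lower in YAP5SA. The 11 variants counted 5 higher and 1 lower in each of these groups. In TAZ-CAMTA1 and TFE3 against EV, and in CAMTA1 against EVsub, no gene of these 4 lists was called by edgeR.

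Each fusion was compared with the hyperactive form of its coactivator. TAZ-CAMTA1 against the libraries labelled TAZ4SA gave 5 higher and 6 lower members, where 53.7% of all tested genes were called (26.9% higher and 26.8% lower), and with scaling by total counts 6 higher and 3 lower. H2AC25 was at 4.77, 2.67 and 5.35 CPM in TAZ-CAMTA1, below all libraries labelled TAZ4SA (log2 ratio -1.24 with SE 0.22, adjusted p = 4.22e-05). H1-2 was at 18.2, 15.1 and 16.8 CPM and likewise lower (log2 ratio -0.86 with SE 0.20, adjusted p = 0.00085), as was H2BC11 at 2.95, 2.26 and 3.17 CPM (log2 ratio -0.89 with SE 0.18, adjusted p = 0.00028). H4C16 was higher, at 2.20, 2.88 and 3.07 CPM (log2 ratio 1.05 with SE 0.27, adjusted p = 0.00204). H4C8 had a log2 ratio of 0.62 (SE 0.22 and adjusted p = 0.0228), and its call was lost without library 1 or 2 of those labelled TAZ4SA, without TAZ-CAMTA1 library 1 or 3, and in DESeq2. H2BC12 was lower by a log2 ratio of -0.60 (SE 0.17 and adjusted p = 0.00481), or -0.40 with 0.0544 under scaling by total counts. H2AC25, H1-2, H2BC11, H4C16 and H2BC12 kept their call without any 1 library. The count of 11 was 6 without library 2 of those labelled TAZ4SA, and 7 without library 1 of those or without TAZ-CAMTA1 library 3, and DESeq2 called 7.

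YAP-TFE3 against YAP5SA gave 7 higher and 3 lower members, where 52.4% of all tested genes were called (28.1% higher and 24.3% lower). H4C8 differed most among members with 20 or more mean counts, 3.39-fold higher in YAP-TFE3 with no overlap (log2 ratio 1.76 with SE 0.23, adjusted p = 5.5e-07). H2BC11 was lower, with 2.37, 2.32 and 2.75 CPM in YAP-TFE3 below all 3 YAP5SA libraries (log2 ratio -0.82 with SE 0.19, adjusted p = 0.00079). H4C8, H2BC11 and H2AC7 kept their call without any 1 library. H3C10 was higher by a log2 ratio of 0.96 (SE 0.30 and adjusted p = 0.0106), but by 0.64 with an adjusted p of 0.0943 without YAP-TFE3 library 3. H2BC18 had a log2 ratio of 1.07 (SE 0.32 and adjusted p = 0.00765), or 0.81 with 0.0577 without YAP5SA library 2. H4C16 had 0.87 (SE 0.27 and adjusted p = 0.00964), or 0.72 with 0.0509 without YAP-TFE3 library 1. H2BC15 had 0.71 (SE 0.21 and adjusted p = 0.00702), or 0.51 with 0.0599 without YAP5SA library 1. Without all libraries numbered 3 the count was 4 higher and 4 lower.

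TAZ-CAMTA1 against YAP-TFE3, fusion against fusion, gave 3 lower members and none higher, where 42.7% of all tested genes were called (19.9% higher and 22.8% lower). H4C8 was at 1.29, 0.958 and 1.29 CPM in TAZ-CAMTA1, below all YAP-TFE3 libraries (log2 ratio -0.71 with SE 0.19, adjusted p = 0.00446), and this call held without any 1 library. H2BC15 was at 1.86, 1.85 and 2.24 CPM, also lower (log2 ratio -0.64 with SE 0.20, adjusted p = 0.0137), or -0.59 with 0.0524 without TAZ-CAMTA1 library 2 and -0.50 with 0.078 without YAP-TFE3 library 1. H2AC7 was the remaining called member, with a mean of 7.29 counts. The count of 3 was 1 without either of those libraries. Without YAP-TFE3 library 3 it was 9, with 7 higher and 2 lower in TAZ-CAMTA1.

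**Figure D5:**
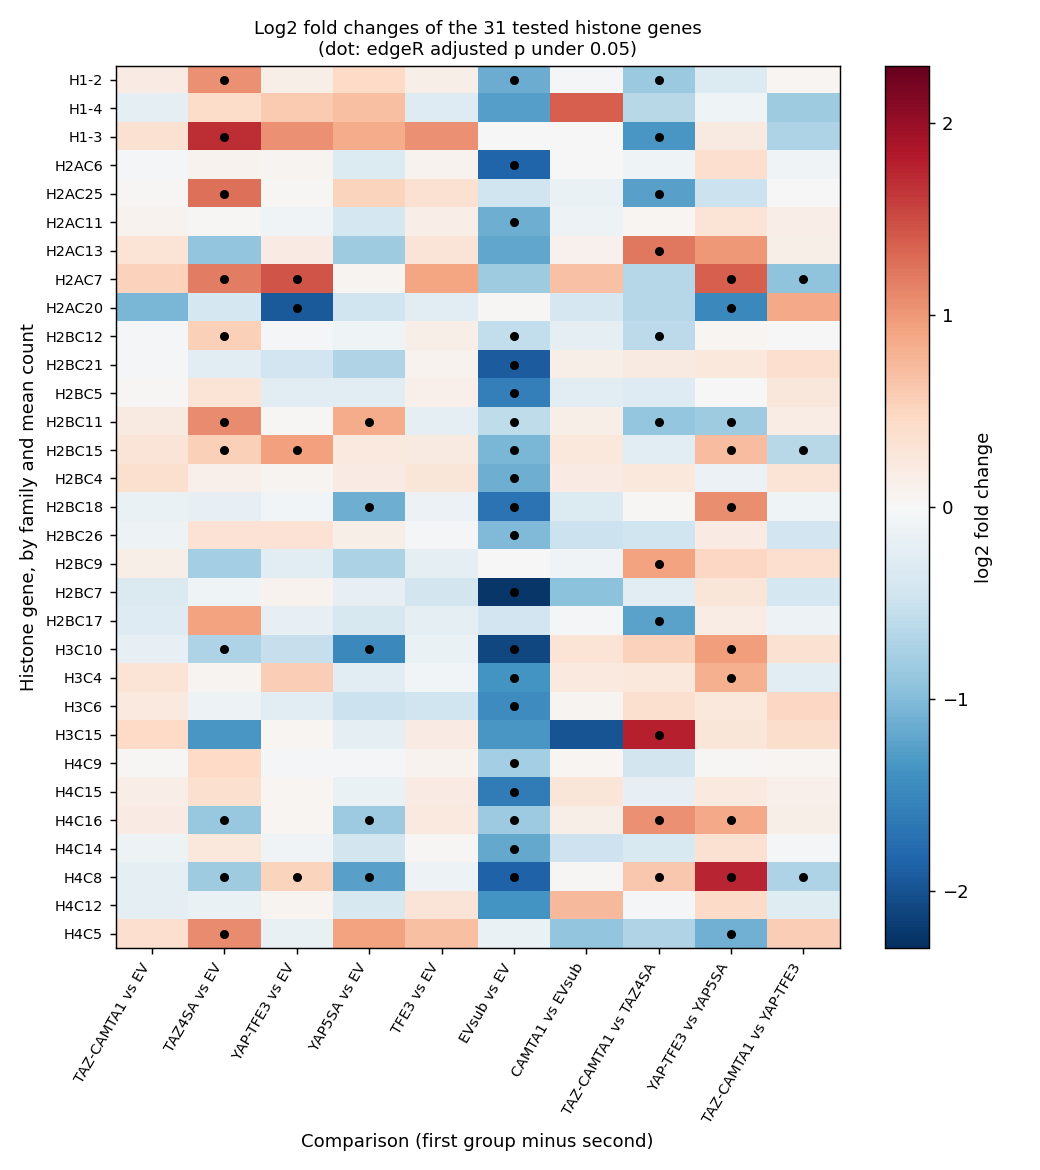
Log2 ratio (colour, first group minus second) of the 31 tested histone genes, ordered by family and mean count, in the 10 comparisons, with a dot where the adjusted p was under 0.05. The EVsub column holds 20 dots, all on blue, while the columns of TAZ-CAMTA1 and TFE3 against EV and CAMTA1 against EVsub hold none.

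H4C8 was called in 7 of the 10 comparisons, more than any other member. It was lower than EV in EVsub, in YAP5SA and among the libraries labelled TAZ4SA. In YAP-TFE3 it was higher, though that call was lost in several settings as given above. H2BC11 was called in 5 comparisons. It was higher than EV in YAP5SA and among the libraries labelled TAZ4SA, and lower in EVsub, where its log2 ratio of -0.58 (SE 0.21 and adjusted p = 0.0313) lost the call without EV library 2 or 3 or EVsub library 1 or 2 (adjusted p = 0.101, 0.054, 0.096 and 0.0767). These comparisons share the EV libraries.

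Many H2A and H2B genes lie head to head and start within a short shared stretch. Among members in the tables, 14 pairs on opposite strands had starts under 1000 bases apart, and in 5 pairs both genes were tested. The 14 include H3C7 with H2BC9 and H3C12 with H2BC17, which pair an H3 with an H2B gene. H2BC17 is also paired with H2AC17. Partners did not always have like values. H2BC21 averaged 455 counts and its partner H2AC20, 235 bases away, 5.79 counts. H2AC6 averaged 611 counts and its partner H2BC4, 218 bases away, 45.5 counts. In EVsub the log2 ratios were -1.84 for H2AC6 and -1.13 for H2BC4, whose call was lost without EV library 3 (adjusted p = 0.107) and without EVsub library 2 or 3 (0.0591 and 0.0892).

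H2BC11 and H2AC11 averaged 77.2 and 132 counts, and 247 bases lie between their starts. They are shown because H2BC11 was called in 5 comparisons and its partner differed in value. H2BC11 was higher in the libraries labelled TAZ4SA by a log2 ratio of 1.09, as given above. H2AC11 was at 5.02, 5.67 and 6.32 CPM there and at 5.31, 5.41 and 5.96 CPM in EV, which overlapped (log2 ratio 0.03 with SE 0.21, adjusted p = 0.915). In EVsub H2AC11 was at 2.36, 2.61 and 2.61 CPM, below all EV libraries (log2 ratio -1.13 with SE 0.23, adjusted p = 0.000507). The difference between the partners was not tested. The annotation of H2BC11 ends 6424 bases past its stem-loop in the genome, introns included, and that of H2AC11 5 bases past. The exons of H2BC11 hold only 1046 bases in all, and 2 of its 3 transcripts are spliced. The stretch between the starts, chr6:27132796-27133042 of GRCh38.p14, is shown on the plus strand, which is the coding strand of H2AC11. Capitals mark the letters TATAAA, the octamer ATTTGCAT and CCAAT on either strand.
H2BC11 to H2AC11: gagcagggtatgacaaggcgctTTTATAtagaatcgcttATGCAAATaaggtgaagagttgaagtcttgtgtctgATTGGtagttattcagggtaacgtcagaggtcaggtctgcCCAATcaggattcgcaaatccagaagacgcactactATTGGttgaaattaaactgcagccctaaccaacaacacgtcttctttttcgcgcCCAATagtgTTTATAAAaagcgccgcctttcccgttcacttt

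The same motifs were counted in the promoter windows of RefSeq (GRCh38.p14), which cover 250 bases before to 50 bases after each start, on both strands, and 63 members matched by symbol. The TATAAA motif was in 43 of the 63 (68.3%) and in 11.5% of all 35116 windows. The octamer was in 11 of 16 H2A and 14 of 18 H2B windows and in none of the H1, H3 or H4 windows, against 1.77% of all windows. CCAAT was in all H1, H2A, H2B and H3 windows and in 3 of 13 H4 windows, against 34.6% of all windows. Neighbouring H2A and H2B genes share these windows in part, so the windows are not independent of one another.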

How the data were processed

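The authors deposited raw counts per Ensembl gene, 1 table per library, made from stranded paired-end poly(A) libraries that the methods describe as processed with bcbio-nextgen against hg38, on Ensembl release 78. The methods name Hisat2 alignment and, beside it, Salmon with tximport, and which of these made the deposited counts, and how strand and multiply placed reads were treated, is not given in the sources used here. The study's own tests used DESeq2. Here counts were scaled by TMM and tested with the quasi-likelihood test of edgeR 4.0.16 in R 4.3.3, with 1 mean per group over all 24 libraries. Standard errors are the log2 ratio over the root of the test's F. The 19997 genes with a mean of 5 or more counts were tested, and genes were called at a Benjamini-Hochberg adjusted p under 0.05. With 3 libraries a group, exact permutation p-values cannot go below 0.1.

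Symbols, exons and stop codons came from GENCODE release 44, and 56104 of 60279 gene identifiers matched. The stem-loop letters were the 16-base hairpin with a 6-base stem held by the most members. Windows of 75 bases were compared with the primary chromosomes on both strands. The members and lists were chosen with earlier results of these data known. Genes were named per comparison as up to 6 called members with the largest change and a mean of at least 20 counts, and values by library were to be given for members with a mean of at least 100 counts. Values by library of members with fewer counts were added after their values were seen. Other called members, the partners in gene pairs and genes with an unadjusted p under 0.05 were added. Of each list up to 3 called genes were named. Of 15 variant histones 12 were found by symbol and 11 tested. Of 6 adipocyte markers 4 were tested, and of 7 markers of other cell types 6. The script was tested on simulated counts. Alternatives were DESeq2 1.42.0, other scalings and filters, a replicate block, fits on the groups compared, and fits without each library.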

Additional observations from a re-analysis of the deposited data

How the results depend on the processing

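Counts of called histone genes kept within 1.5 times of the value reported except as follows. For YAP5SA against EV (5 called), 8 were called under total-count scaling, with no filter beyond 1 count, with the replicate block and with only the groups compared. For YAP-TFE3 against EV (4) 2 were called when the filter was raised to a mean of 20 counts. For TAZ-CAMTA1 against the libraries labelled TAZ4SA (11) 6 were called with that filter and 7 by DESeq2. For YAP-TFE3 against YAP5SA (10) 6 were called with that filter, under which 18 members remain in the test. For TAZ-CAMTA1 against YAP-TFE3 (3) 7 were called without all libraries numbered 3, which was chosen after the data were seen. Apart from filters, which change the genes tested, and left-out libraries, the cause was not tested. Leaving out each library in turn gave 15 to 22 for EVsub against EV, 7 to 10 for TAZ4SA against EV, 3 to 7 for YAP-TFE3 against EV, 4 to 6 for YAP5SA against EV, 6 to 9 for TAZ-CAMTA1 against TAZ4SA, 7 to 9 for YAP-TFE3 against YAP5SA, 1 to 9 for TAZ-CAMTA1 against YAP-TFE3, and 0 for TAZ-CAMTA1 and TFE3 against EV and CAMTA1 against EVsub. Replicate numbers recur in all groups. Over all tested genes, deviations from the group means of libraries with 1 number correlated between -0.236 and 0.216 over 30 pairs, 6 of them over 0.1. Of 24 libraries, 11 correlated best with their own number, so the numbers were not taken to pair libraries. That check was not made on the histone genes alone, whose sum was highest in library 3 in 7 of the 8 groups. The replicate block gave 23 for EVsub, 12 for TAZ4SA, 8 for YAP5SA and 4 for YAP-TFE3 against EV, 12 and 10 for the fusions against their parents, 3 between the fusions and 0 for TAZ-CAMTA1 and TFE3 against EV and CAMTA1 against EVsub. Total-count scaling shifted the median gene by -0.198 in TAZ4SA and -0.185 in YAP5SA against EV on the log2 scale. Over 64 called gene values and 878 alternatives, none changed direction and 143 lost the call. Genes with few counts limit the rest: 33 of 64 members could not be tested.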
